A study of Rattus norvegicus with 4 samples.

Results

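The genes described here encode the translation initiation factors (eIFs) and elongation factors (eEFs) of the cytosol, with the enzymes and binding proteins that carry an Eif or Eef symbol. They were chosen by symbol, as every gene of the table whose name starts with Eif or Eef followed by a digit, except the Y-linked Eif2s3y. This gave 65 of the 32883 genes listed. RNA was from whole carotid bodies (CBs) of Sprague Dawley rats, the small organs at the carotid bifurcation whose glomus cells sense blood oxygen. The neonatal libraries came from pups of day 5 and the adult libraries from rats of day 21. There were 2 libraries of each age, each from CBs pooled from 6 pups or 3 adults by the labels, and the older rats were littermates left to grow. The methods of the study describe larger pools and triplicates, while 4 libraries were analysed here. The labels name no treatment other than urethane given at harvest, and no genotype other than the strain. Because animals were pooled, the spread between libraries is a spread between pools. In whole tissue, fewer cells of a type and less RNA per cell cannot be told apart.

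Initiation begins when eIF2 brings the initiator tRNA to the small ribosomal subunit, on which eIF3 is the large scaffold and eIF1 and eIF1A guide the search for the start codon. The eIF4 proteins bind the cap of the mRNA and unwind its leader, and eIF5 and eIF5B complete the joining of the large subunit. During elongation, eEF1A delivers each aminoacyl-tRNA, the eEF1B subunits recharge it with GTP, and eEF2 moves the ribosome along. The pathway is controlled mainly by phosphorylation, through kinases of eIF2 and through the eIF4E-binding proteins, which lie downstream of mTORC1. Many mRNAs of this machinery carry a terminal oligopyrimidine (TOP) tract at their 5′ end, which ties their translation to mTORC1.

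The deposited values are estimated counts per gene, which sum to 39476110 and 38506468 in neonates, with adult totals of 37778975 and 36286191. They were scaled by edgeR's TMM method to CPM, a count scaled to a common library size, and ages were compared by the quasi-likelihood test of edgeR, adjusted by Benjamini-Hochberg over the 13843 genes tested. Log2 fold changes are neonate over adult, so that values above 0 are higher in neonates, and a gene was called at an adjusted p under 0.05. Transcript lengths are not in the table, so levels are compared between ages and not between genes. Counts were whole numbers in every library for 50 of the 65 genes. The other 15 have a fractional count in at least 1 library, as arises where reads fit more than 1 copy or transcript, and their levels, and ratios that use them, are less certain. They are Eef1a1, Eef1g, Eef1akmt1, Eef1aknmt, Eif1, Eif2b1, Eif3el1, Eif4a1, Eif4e, Eif4e2, Eif4g1, Eif4g2, Eif4ebp3, Eif5 and Eif5b. Glomus cell markers were present in all libraries, with Th, tyrosine hydroxylase, at 1020 and 837 CPM in neonates and at 1407 and 1135 CPM in adults.

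Of the 65 genes, 64 passed the filter of at least 1 CPM in at least 2 libraries. Eef1akmt3 did not, with 2, 0, 5 and 2 counts. Among the 64, 33 (51.6%) were higher in neonates and 10 (15.6%) were lower, and 21 were not called. Over all genes tested, 31.2% were called higher in neonates and 31.1% lower, or 62.3% in either direction. The differences were small, with 43 of the 64 genes under 0.5 on the log2 scale in either direction. At a fold change of at least 2, only Eif3k was called higher and only Eif4ebp2 lower, against 7.68% and 13.2% of all genes tested. The median log2 fold change of the 64 genes was 0.24, beside -0.0029 over all genes tested. The libraries of the ages did not overlap for 52 of the 64, or 81.2%, and for 83.0% of all genes tested.

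**Figure D1:**
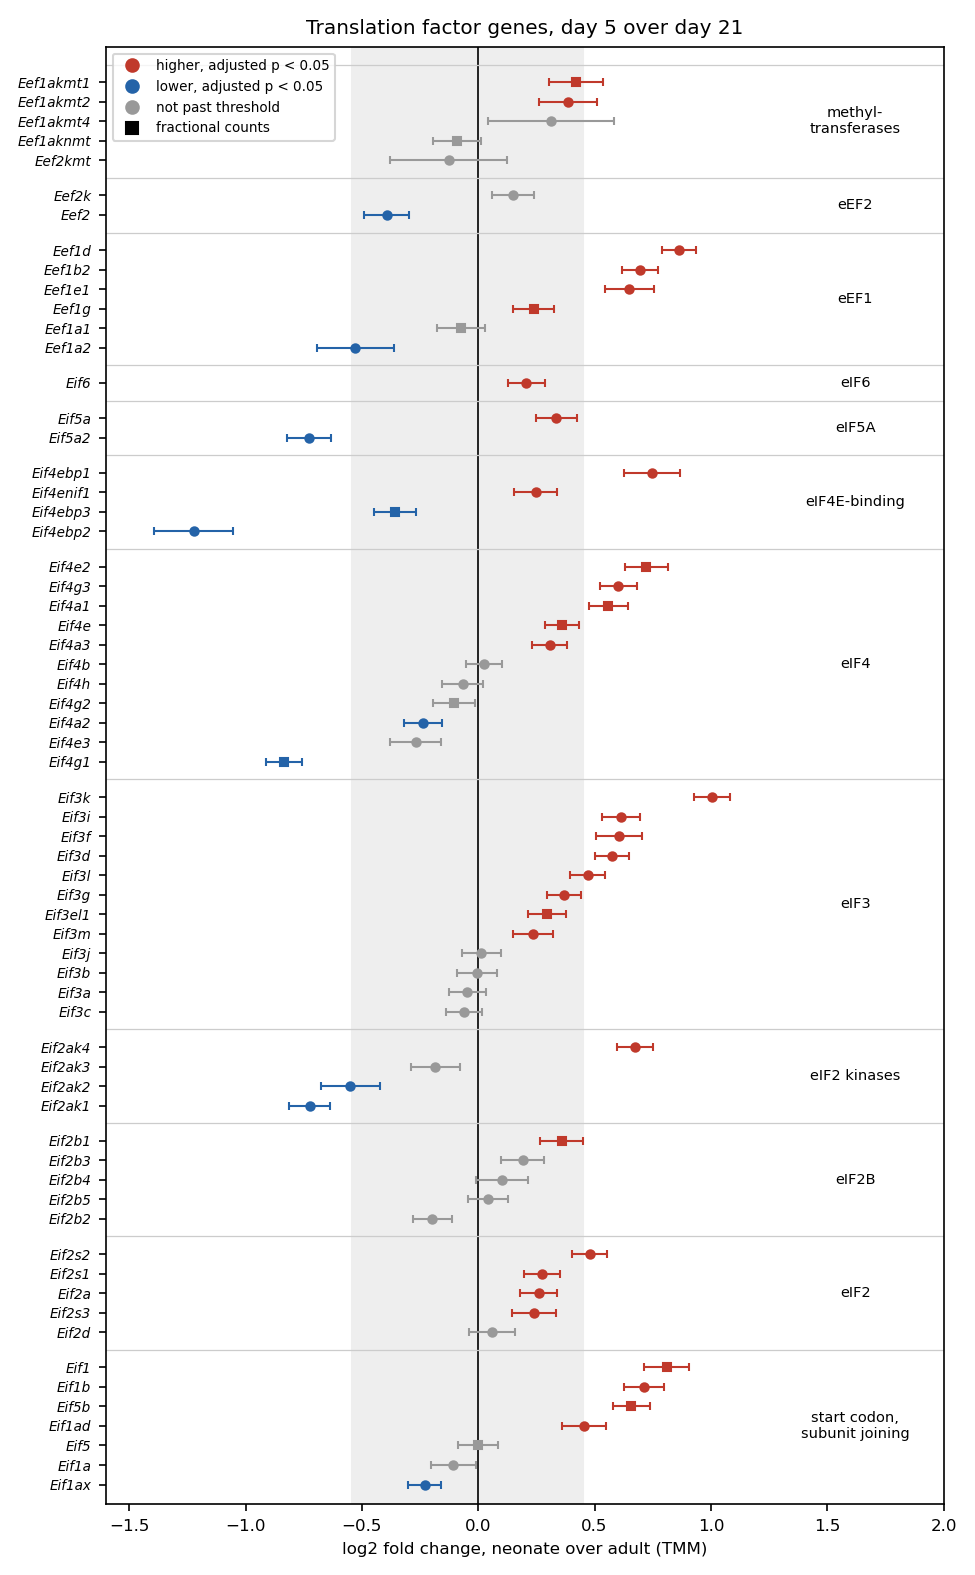
Log2 fold change, neonate over adult, of the 64 translation factor genes tested (x axis; bars are the standard error from edgeR's fit), grouped by role. Red points were called higher, blue points lower and grey points not called, squares have fractional counts, the line is the median of all genes tested and the grey band their middle quartiles. Most red points lie between 0.2 and 0.9, and Eif4ebp2 lies farthest left at -1.22.

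The direction of small differences rests on the scaling. Protein-coding genes of the mitochondrial genome held 18.7% and 15.6% of all neonatal counts but 9.06% and 9.08% of adult counts. Scaled to library size alone, the median of all genes tested moved to -0.25, and 17 of the 33 genes called higher were still called, while the others were not. All 10 genes called lower were still called, and 12 genes not called before became lower, so 17 were higher and 22 lower. Scaled to the library size without mitochondrially encoded genes, an alternative chosen after the data were seen, 24 were higher and 13 lower. Relative to the median of all genes, the median of the translation factor genes was 0.24 under each of these scalings. A scaling moves all genes by about the same amount, so this distance could hardly change and is no test of stability. In the untransformed counts the 65 genes took 1.46% and 1.55% of a neonatal library and 1.72% and 1.68% of an adult library. In TMM-scaled CPM they summed to 16246 and 16611 in neonates and to 15972 and 15349 in adults.

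**Figure D2:**
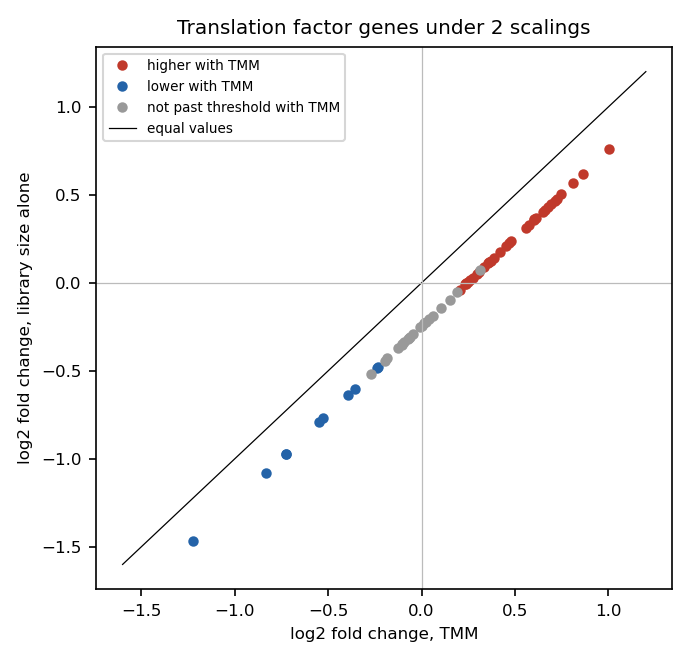
Log2 fold change of each of the 64 genes after TMM (x axis) and after scaling to library size alone (y axis), with the line of equal values and colours by the call after TMM. All points lie below the line by about the same amount, so that 17 genes were called higher and 22 lower on the y axis, in place of 33 and 10.

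Across all 14 alternatives of scaling, filter, test, block and left-out library, 23 genes were called in the same direction each time. Those higher in neonates were Eif1, Eif1b, Eif5b, Eif2s2, Eif2ak4, Eif3d, Eif3f, Eif3i, Eif3k, Eif3l, Eif4a1, Eif4e2, Eif4g3, Eif4ebp1, Eef1b2, Eef1d and Eef1e1. Those lower were Eif2ak1, Eif2ak2, Eif4g1, Eif4ebp2, Eif5a2 and Eef2.

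Among the genes of start codon selection and subunit joining, 4 of 7 were higher in neonates and Eif1ax was lower. Of all genes tested, 31.2% were called higher and 31.1% lower. Eif1, which keeps the scanning ribosome from starting at poor codons, had 919 and 985 CPM in neonates and 569 and 517 CPM in adults. Its log2 fold change was 0.81 (standard error 0.095, edgeR adjusted p = 0.00011). Its close copy Eif1b had 92.5 and 89.4 CPM in neonates and 58.0 and 53.0 CPM in adults (log2 fold change 0.71, edgeR adjusted p = 0.00013). Eif1 was thus 1.75-fold and Eif1b 1.64-fold higher in neonates, with no overlap between ages. Eif5b, the GTPase that joins the subunits, was at 0.66 and has fractional counts, as does Eif1. Eif1ax and Eif1a, whose products hold the scanning complex open, went the other way or did not pass. Eif1ax had 115 and 117 CPM in neonates and 134 and 138 CPM in adults (log2 fold change -0.23, edgeR adjusted p = 0.021), and its call was lost without neonate replicate 1 (adjusted p = 0.105), neonate replicate 2 (0.0757) or adult replicate 2 (0.0554). Eif5, the activator of the GTPase of eIF2, did not differ by more than its standard error of 0.087, with 298 and 334 CPM in neonates and 313 and 318 CPM in adults.

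For eIF2 itself, all 3 subunit genes were called higher in neonates, beside 31.2% of all genes tested called higher and 31.1% lower. Eif2s2, the beta subunit, had 151 and 161 CPM in neonates and 113 and 111 CPM in adults (log2 fold change 0.48, standard error 0.075, edgeR adjusted p = 0.00055). Eif2s1, the alpha subunit that the stress kinases phosphorylate, was at 0.27, and Eif2s3, the gamma subunit, at 0.24. Scaled to library size alone, Eif2s1 (0.028) was no longer called and Eif2s3 was at -0.0029, so only the call of Eif2s2 held under every alternative. Eif2s1 also lost its call without adult replicate 1 (adjusted p = 0.065) or adult replicate 2 (0.098). Eif2s3 lost it without neonate replicate 2 (0.29), adult replicate 1 (0.20) or adult replicate 2 (0.080). Of the 5 subunit genes of eIF2B, the exchange factor that recharges eIF2 with GTP, only Eif2b1 was called, at 0.36 with 52.4 and 56.7 CPM in neonates and 41.5 and 43.6 CPM in adults (edgeR adjusted p = 0.0086, and 0.104 without adult replicate 1). The catalytic subunit Eif2b5 had 62.6 CPM in both neonatal libraries and 58.8 and 62.8 CPM in adults, with overlap.

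The 4 kinases that phosphorylate eIF2 did not move together. Eif2ak4 (GCN2), which responds to uncharged tRNA, was higher in neonates, with 100.3 and 103 CPM against 63.7 and 64.0 CPM in adults. Its log2 fold change was 0.67 (standard error 0.078, edgeR adjusted p = 0.00010). Eif2ak1 (HRI), the kinase known from heme deficiency in red cell precursors, was lower, with 34.5 and 34.0 CPM in neonates and 56.9 and 56.3 CPM in adults (log2 fold change -0.72, edgeR adjusted p = 0.00013). Eif2ak2 (PKR), which binds double-stranded RNA and is induced by interferon, had 32.5 and 40.2 CPM in neonates and 49.0 and 57.5 CPM in adults (log2 fold change -0.55, edgeR adjusted p = 0.0046). These 3 genes kept their calls under all alternatives. Eif2ak3 (PERK), the kinase of the endoplasmic reticulum, had 38.9 and 46.3 CPM in neonates and 47.9 and 48.9 CPM in adults and was not called (log2 fold change -0.18, edgeR adjusted p = 0.16). Without neonate replicate 2, the library nearer to the adult values, its log2 fold change was -0.30. Scaled to library size alone, Eif2ak3 was called lower (-0.43, edgeR adjusted p = 0.011). The same held for library size without mitochondrially encoded genes (-0.29, edgeR adjusted p = 0.038). Gcn1, the activator of Eif2ak4 and 1 of 12 integrated stress response genes listed, was higher as well, with 164 and 173 CPM against 112 and 122 CPM in adults (log2 fold change 0.53).

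The eIF3 complex held the largest rise in neonates and also genes with almost equal levels at both ages. Of 12 eIF3 genes, 8 were higher in neonates, 4 were not called and 0 were lower, with a median log2 fold change of 0.33. The shares over all genes tested were 31.2% higher and 31.1% lower. Eif3k, a small subunit at the edge of the complex, had 128 and 137 CPM in neonates and 66.3 and 65.9 CPM in adults. Its log2 fold change was 1.004 (standard error 0.077, edgeR adjusted p = 1.4e-05), a neonatal level at the threshold of 2-fold. The value ran over the alternatives from 0.76 with library size alone to 1.06 without neonate replicate 1, with its call kept in each. Eif3l, the partner of Eif3k at that edge, was at 0.47, and Eif3d, which can itself bind the cap, was at 0.58. Eif3i had 78.3 and 76.9 CPM in neonates and 50.8 and 50.6 CPM in adults (log2 fold change 0.61, edgeR adjusted p = 0.00025).

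By the structure of the complex, 4 of the 6 genes Eif3a, Eif3c, Eif3f, Eif3k, Eif3l and Eif3m were higher, with a median of 0.35, and 2 of the 3 genes Eif3b, Eif3g and Eif3i, with a median of 0.37. The 4 genes not called were Eif3a, Eif3b, Eif3c and Eif3j (0.013). Eif3a, its largest subunit, had 360 and 374 CPM in neonates and 381 and 376 CPM in adults, and its log2 fold change of -0.047 was within its standard error of 0.080. Eif3b was at -0.0070 and Eif3c at -0.063, each also within its standard error. With library size alone Eif3a, Eif3b and Eif3c were called lower in neonates (edgeR adjusted p of 0.018, 0.043 and 0.0082), and 5 of the 12 genes were higher and 3 lower. Eif3i, which sits with Eif3b and Eif3g in 1 module of the complex, was called higher under every alternative. Eif3el1 has fractional counts and is a name that the RefSeq table uses both for a gene of its own and for Eif3e, so its value of 0.30 is uncertain. Eif3e and Eif3h were not analysed here.

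**Figure D3:**
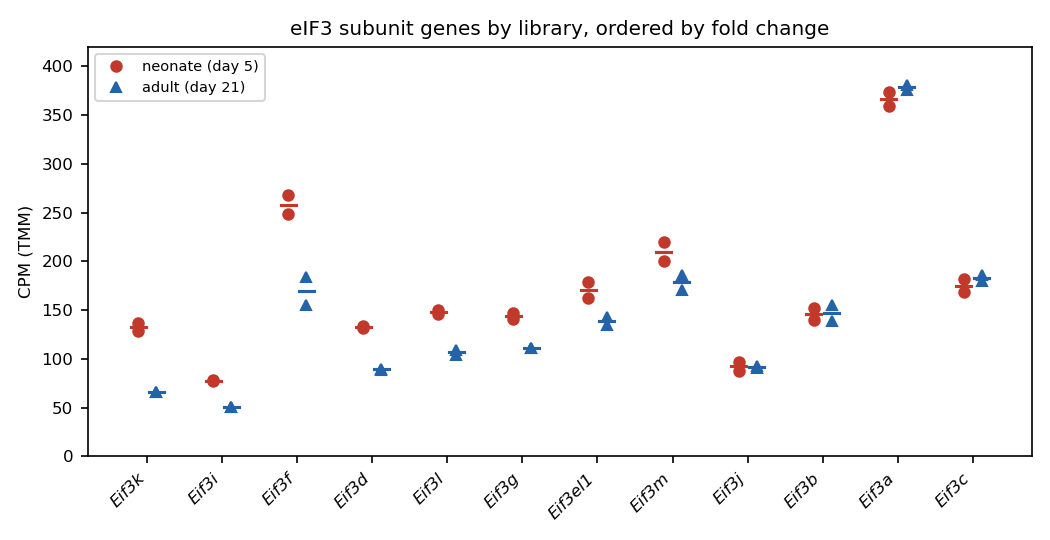
TMM-scaled CPM of the 12 eIF3 genes (y axis) in each neonatal library (red circles) and adult library (blue triangles), with the mean of each age as a bar, ordered by fold change. Eif3k separates the ages most, with 128 and 137 CPM in neonates and 66.3 and 65.9 CPM in adults, while Eif3j, Eif3b, Eif3a and Eif3c lie close together. Heights of different genes are not corrected for length.

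Among the cap-complex genes, paralogs moved in opposite directions. Eif4g1, the main scaffold of the cap complex, had 114 and 117 CPM in neonates and 197 and 215 CPM in adults (log2 fold change -0.83, standard error 0.079, edgeR adjusted p = 3.6e-05). Eif4g3, its paralog, had 224 and 244 CPM in neonates and 153 and 156 CPM in adults (log2 fold change 0.60, standard error 0.080, edgeR adjusted p = 0.00022). The counts of Eif4g1 are fractional, those of Eif4g3 whole. The number of Eif4g1 counts per Eif4g3 count was 0.509 and 0.478 in neonates and 1.29 and 1.38 in adults, a 2.70-fold change of the ratio with age. Such a ratio within a library does not depend on library scaling. Eif4g2, which lacks the site for eIF4E and drives cap-independent initiation, was not called (-0.11).

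The helicase paralogs also moved apart. Eif4a1, the main RNA helicase of initiation, whose counts are fractional, had 653 and 638 CPM in neonates and 432 and 445 CPM in adults (log2 fold change 0.56, edgeR adjusted p = 0.00045). Eif4a2 had 522 and 513 CPM in neonates and 608 and 612 CPM in adults (log2 fold change -0.24, edgeR adjusted p = 0.033). There were 1.249 and 1.244 counts of Eif4a1 per count of Eif4a2 in neonates and 0.710 and 0.727 in adults, a ratio as uncertain as the counts of Eif4a1. The call of Eif4a2 was lost when any of the 4 libraries was left out, with adjusted p of 0.093 and 0.14 without a neonatal and 0.058 and 0.070 without an adult library. The ratio kept its direction, with differences from 0.78 to 0.81. Eif4a3, a helicase of the exon junction complex, was at 0.31, and the helicase cofactors Eif4b (0.024) and Eif4h (-0.067) were not called.

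Of the genes of eIF4E and its homologs, Eif4e and Eif4e2 were called higher in neonates, both from fractional counts, and Eif4e3 was not called. Eif4e had 170 and 179 CPM in neonates and 137 and 135 CPM in adults (log2 fold change 0.36, edgeR adjusted p = 0.00245), which was not called with library size alone (0.12). Eif4e2, a cap-binding homolog known for repression and for translation in hypoxia, had 57.7 and 59.3 CPM in neonates and 34.2 and 36.7 CPM in adults (log2 fold change 0.72, standard error 0.091, edgeR adjusted p = 0.000165). Eif4e3 had 20.6 and 18.4 CPM in neonates and 23.8 and 23.2 CPM in adults (-0.27, edgeR adjusted p = 0.060). The ratio of Eif4e to Eif4e3 counts was 8.26 and 9.72 in neonates and 5.74 and 5.83 in adults.

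The eIF4E-binding proteins, which block the cap complex until mTORC1 phosphorylates them, split by gene. Eif4ebp1 had 22.8 and 24.97 CPM in neonates and 13.5 and 14.99 CPM in adults (log2 fold change 0.75, standard error 0.12, edgeR adjusted p = 0.00067). Eif4ebp2, the form prominent in the nervous system, had 6.84 and 5.87 CPM in neonates and 15.1 and 14.6 CPM in adults. Its log2 fold change of -1.22 (standard error 0.17, edgeR adjusted p = 0.00030) was the lowest of the 64 genes. The ratio of Eif4ebp1 to Eif4ebp2 counts was 3.33 and 4.24 in neonates and 0.893 and 1.03 in adults, which was the widest change of the 7 paralog pairs at 3.93-fold. Eif4ebp3 was lower in neonates at -0.36, with an adjusted p of 0.052 without neonate replicate 2. Eif4enif1, the carrier of eIF4E into the nucleus, was at 0.25 and lost its call when any library other than neonate replicate 1 was left out, with adjusted p from 0.086 to 0.37.

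eIF5A relieves ribosomes stalled at stretches such as prolines and is the protein known to carry the amino acid hypusine. Eif5a, the common form, had 490 and 463 CPM in neonates and 391.9 and 363.9 CPM in adults (log2 fold change 0.34, edgeR adjusted p = 0.0084, and 0.074 without adult replicate 2). Eif5a2 had 29.2 and 28.3 CPM in neonates and 49.99 and 45.16 CPM in adults (log2 fold change -0.73, standard error 0.095, edgeR adjusted p = 0.000205). The ratio of Eif5a to Eif5a2 counts was 16.8 and 16.4 in neonates and 7.84 and 8.06 in adults. Both enzymes that make hypusine were also called higher in neonates, Dhps at 0.31 and Dohh at 0.43. Eif6, which keeps the large subunit from joining too soon, was at 0.21, and that call was lost without any library other than neonate replicate 2, with adjusted p from 0.12 to 0.28, or in DESeq2 (0.071).

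**Figure D4:**
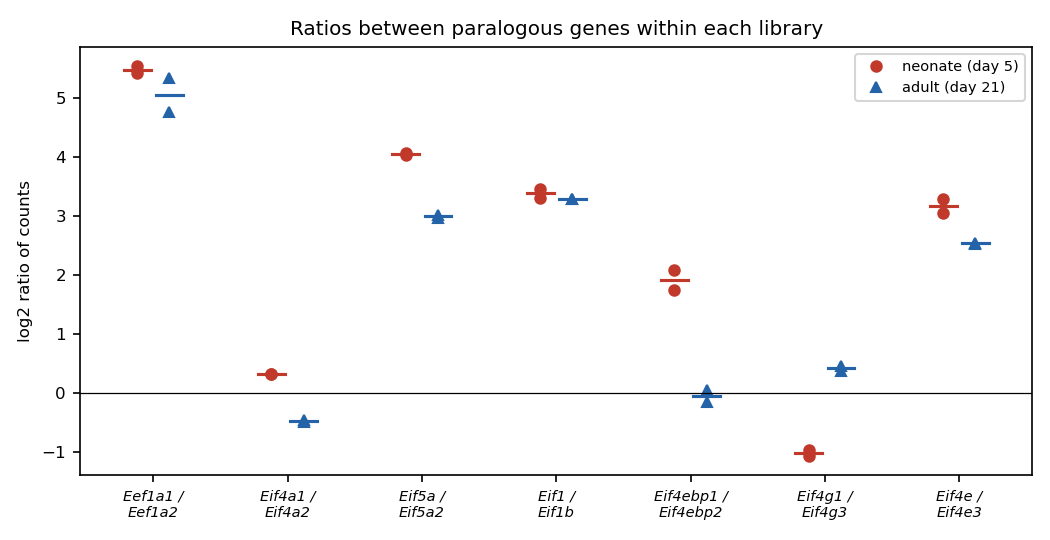
Log2 ratio of the counts of paralogous genes (y axis) in each neonatal library (red circles) and adult library (blue triangles), with the mean of each age as a bar. The ages are well apart for Eif4a1/Eif4a2, Eif5a/Eif5a2, Eif4ebp1/Eif4ebp2 and Eif4g1/Eif4g3, and close for Eif1/Eif1b, while the adult libraries of Eef1a1/Eef1a2 differ widely.

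Over the 7 pairs, the libraries of the ages did not overlap in any ratio. Among single genes tested, 83.0% did not overlap either, and ratios of other gene pairs were not examined. An exact two-sided permutation test of each of the 7 ratios gave p = 0.33, the smallest that 2 libraries against 2 can give. None can therefore be called by that test, also after adjustment over the pairs. The difference between ages in mean log2 ratio was -1.43 for Eif4g1 over Eif4g3, with a standard deviation of 0.063 in neonates and 0.068 in adults (n = 2 each). It was 1.06 for Eif5a over Eif5a2 and 0.80 for Eif4a1 over Eif4a2, where no standard deviation exceeded 0.028. For Eif1 over Eif1b the difference of 0.097 was less than the standard deviation of 0.11 between neonatal libraries.

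In elongation, the exchange subunits of eEF1 rose in neonates while the delivery factor did not. Eef1d had 181 and 173 CPM in neonates and 98.5 and 96.5 CPM in adults (log2 fold change 0.86, standard error 0.074, edgeR adjusted p = 2.3e-05). Eef1b2, the other exchange catalyst, had 298 and 295 CPM in neonates and 187 and 180 CPM in adults (log2 fold change 0.69, edgeR adjusted p = 8.0e-05). Eef1e1, a scaffold of the tRNA synthetase complex, was at 0.65. Eef1g, the structural subunit, was at 0.24, and this call was lost when any of the 4 libraries was left out, with adjusted p from 0.071 to 0.28, while with library size alone the value was -0.0064.

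Eef1a1, the delivery factor, whose row takes 27.2% to 30.4% of the counts of the 65 genes, had 4483 and 4516 CPM in neonates and 4815 and 4661 CPM in adults. Its log2 fold change was -0.074 (standard error 0.10, edgeR adjusted p = 0.54) and its counts are fractional. Eef1a2, the isoform of muscle and neurons, had 96.8 and 106 CPM in neonates and 177 and 115 CPM in adults (log2 fold change -0.53, standard error 0.17, edgeR adjusted p = 0.021). The adult libraries differed from each other, and without adult replicate 1 the value was -0.21 (adjusted p = 0.091). It was also not called without neonate replicate 1 (0.060) or in DESeq2 (0.13). The ratio of Eef1a1 to Eef1a2 counts was 46.3 and 42.7 in neonates and 27.2 and 40.5 in adults. Skeletal muscle markers were low and did not single out adult replicate 1. The 5 markers listed, Acta1, Ckm, Mylpf, Tnnt3 and Myh4, summed to 15.3 and 23.5 CPM in neonates and to 16.1 and 22.5 CPM in adults. The 5 neuron markers listed summed to 1801 and 1658 CPM in neonates and to 1330 and 1081 CPM in adults, and 4 of them were higher in neonates. Nefl, Nefm and Tubb3, which encode neuronal cytoskeleton proteins, were higher in adult replicate 1 than in adult replicate 2, as Eef1a2 was, with 94.1 and 49.6 CPM for Nefl, 33.1 and 16.0 CPM for Nefm and 153 and 97.5 CPM for Tubb3. Snap25, which took the most counts of the 5 in every library with 592 to 678 CPM, was not called. The glomus cell markers listed, among them Th, were each higher in adult replicate 1 as well. They summed to 4033 CPM there and to 3390 CPM in adult replicate 2. The part of neuron and glomus cell markers in the result was not tested.

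Eef2, the translocase, went the other way from the exchange subunits. It had 1251 and 1282 CPM in neonates and 1748 and 1581 CPM in adults (log2 fold change -0.39, standard error 0.098, edgeR adjusted p = 0.0069), with no overlap and the call kept under all alternatives. Eef2k, the kinase that inhibits eEF2, had 57.4 and 58.5 CPM in neonates and 50.7 and 53.8 CPM in adults and was not called (0.15, edgeR adjusted p = 0.17). Of the 6 genes for methyltransferases of elongation factors, 5 were tested. Eef1akmt1 (0.42) and Eef1akmt2 (0.39) were called higher. Eef1akmt1 lost its call without neonate replicate 1 (adjusted p = 0.061) or adult replicate 2 (0.11), and Eef1akmt2 without any library other than neonate replicate 1 (0.051 to 0.14).

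The annotated transcription starts were searched for a TOP-like tract, since the family includes well-known TOP mRNAs. A tract was counted where a C followed by at least 4 pyrimidines began within 5 bases of a RefSeq start, on the strand of the gene only, since the tract is part of the transcript. RefSeq promoters (build GRCr8) were found for 58 of the 65 genes. Eef1akmt3, Eef1aknmt, Eef1d, Eif3el1, Eif4b, Eif4e3 and Eif4ebp1 had no entry. A tract was found for 17 of the 58 (29.3%), for 37 of 61 ribosomal protein genes (60.7%), for 18.8% of all genes tested that have an entry, and in 17.0% of all windows of this length. The following windows of 30 bases, 15 before and 15 from the start, show tracts of factors called higher in neonates and of Eef1a1. The calls of Eif3m (0.23) and Eif2a (0.26) were not stable. That of Eif3m was lost without neonate replicate 2 (adjusted p = 0.17) or adult replicate 2 (0.24), that of Eif2a without adult replicate 1 (0.058) or adult replicate 2 (0.17), and both under either library-size scaling. Capitals mark the tract as far as it lies in the window.
Eef1a1 (chr8:88225055-88225084, minus strand): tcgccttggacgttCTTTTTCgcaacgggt
Eef1b2 (chr9:72074076-72074105, plus strand): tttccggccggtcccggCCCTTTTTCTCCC
Eif3f (chr1:172369047-172369076, plus strand): tcacgcccttccgttctagCCTCTCTCTTT
Eif3m (chr3:111897179-111897208, minus strand): cgtaacaccgtgtggtaccgCTCCTTTTCC
Eif2a (chr2:144911345-144911374, plus strand): ccagcgcatgggtttCTCTTTCCgggacaa
Eif1 (chr10:85747122-85747151, plus strand): tacaggcgccgCCCCTCCgccccagtcact

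Genes with a tract did not share 1 direction. Of the 17, 11 were higher in neonates, 2 (Eif4g1 and Eif5a2) were lower and 4 were not called, and their median was 0.26 on the log2 scale. Of the 41 tested without a tract, 19 were higher, 8 lower and 14 not called, with a median of 0.19. The shares over all genes tested were 31.2% called higher and 31.1% lower. Among the genes printed, Eef1b2 was at 0.69 and Eif3f, with 249 and 268 CPM in neonates and 184 and 155 CPM in adults, at 0.60, while Eef1a1 was at -0.07. A match describes these letters at an annotated start, which may lie some bases from the start used in the CB.

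The promoters were also searched for the E-box CACGTG, which reads the same on both strands and is the site that Myc and its relatives bind. It was present within 250 bases before to 50 bases after a start for 12 of the 58 genes (20.7%), for 5 of the 61 ribosomal protein genes (8.2%), for 9.46% of all genes tested that have an entry, and in 6.42% of all windows. An E-box contains A and G, so it cannot lie within a pyrimidine tract. The windows show E-boxes, in capitals, of genes that went up and of genes that went down.
Eif4e (chr2:229740661-229740690, plus strand): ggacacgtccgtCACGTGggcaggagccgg
Eif1b (chr8:129081092-129081121, plus strand): ggaacgtgtggtCACGTGgcggcggcgcgc
Eif4g1 (chr11:93746404-93746433, minus strand): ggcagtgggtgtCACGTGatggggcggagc
Eif5a2 (chr2:113657651-113657680, plus strand): cagggcgagcttCACGTGactgggcgggac
Eef2 (chr7:9189297-9189326, minus strand): cacccgcgccgtCACGTGacgtgcccaacc
Of the 12 genes with an E-box, 4 were higher in neonates, 3 were lower and 5 were not called, and their median log2 fold change was 0.071. Of the 46 tested without one, 26 were higher and 7 lower, with a median of 0.24. Over all genes tested, 31.2% were called higher and 31.1% lower, so the counts with an E-box are not read as a result.

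Other genes of the pathway, listed by their roles, gave the context of these changes. Their counts stand beside 31.2% of all genes tested called higher and 31.1% called lower. All are calls after TMM. With library size alone the median of all genes tested was -0.25, so the smaller rises rest on the scaling. Of the cytosolic ribosomal proteins, chosen by symbol, 82 of 87 tested were higher in neonates and 2 lower, with a median log2 fold change of 0.85. Their largest called rise was Rps18l1 (1.44) and their largest fall Rps6 (-4.60), both from entries with fractional counts, Rps6 with 103 and 0 counts in neonates and 1708 and 1116 in adults. With 0 counts in neonate replicate 2, Rps6 met the filter only with the adults, so no fall is read from it. In DESeq2 the value of Rps6 was not called (adjusted p = 0.17). Of 22 genes of cytosolic tRNA synthetases and their cofactors, 14 were higher and 1 was lower, with a median of 0.30. Vars1, the valine enzyme, whose counts are fractional, had 113.4 and 101.6 CPM in neonates and 64.9 and 59.1 CPM in adults (log2 fold change 0.79), and Farsb, the beta subunit of the phenylalanine enzyme, was at -0.35 (edgeR adjusted p = 0.0097, and 0.062 without adult replicate 1).

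Among 13 genes of release, recycling and reinitiation, 6 were higher and 4 lower, beside 31.2% and 31.1% of all genes tested. Tpt1, a TOP mRNA for a small growth-related protein and with fractional counts, had 2696 and 2869 CPM in neonates and 1447 and 1363 CPM in adults (log2 fold change 0.99, edgeR adjusted p = 5.1e-05). Denr (0.92) and Mcts1 (0.78), whose products form a complex for recycling and reinitiation, were both higher. Gtpbp1, a GTPase related to eEF1A, was lower at -0.76, and Etf1, the release factor that reads stop codons, at -0.50. Of 11 mitochondrial translation factors, 7 were higher and 2 lower. Mtif2, the mitochondrial initiation factor, had 52.1 and 52.2 CPM in neonates and 23.7 and 25.2 CPM in adults (log2 fold change 1.09), while Mrrf, which recycles mitochondrial ribosomes, was at -0.81. Of 9 hypusine and diphthamide enzymes, 6 were higher and 2 lower, with Dph7 at 0.77. Dph6, counted as lower at -2.27, had 0.789 and 0.501 CPM in neonates and 3.07 and 3.17 CPM in adults. It passed the filter through the adults alone, which favours a low value in neonates, so no fall is read from it.

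Beside the 31.2% of all genes tested that were called higher and the 31.1% called lower, the lists of regulators were as follows. Of 20 mTORC1 pathway genes, 8 were higher and 5 lower, with a median of 0.085. Rps6kb2, which encodes an S6 kinase, had 84.4 and 80.3 CPM in neonates and 27.9 and 31.4 CPM in adults (log2 fold change 1.47, standard error 0.099, edgeR adjusted p = 7.1e-06). Its relative Rps6kb1 had 33.1 and 34.9 CPM in neonates and 34.7 and 34.1 CPM in adults and was not called. Deptor, an inhibitor bound to mTOR, had 1.802 and 1.253 CPM in neonates and 5.47 and 8.34 CPM in adults (log2 fold change -2.17, edgeR adjusted p = 0.00043). Mtor itself was not called (0.13). Of 12 integrated stress response genes, 3 were higher (Atf4, Ddit3 and Gcn1) and 2 lower (Atf5 and Asns), with Atf4, the transcription factor translated when eIF2 is phosphorylated, at 342 and 380 CPM in neonates and 253 and 261 CPM in adults (log2 fold change 0.49). Atf5, a related factor, was at -0.68. Of 13 cap and poly(A) regulators, 3 were higher, led by Pabpc4 (0.56), and 3 lower. Paip2b, an inhibitor of the poly(A)-binding protein, had the lowest value at -2.06. It had 2.11 and 0.891 CPM in neonates and 5.25 and 7.31 CPM in adults. With neonate replicate 2 under 1 CPM, Paip2b met the filter only with the adults, so no fall is read from it.

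**Figure D5:**
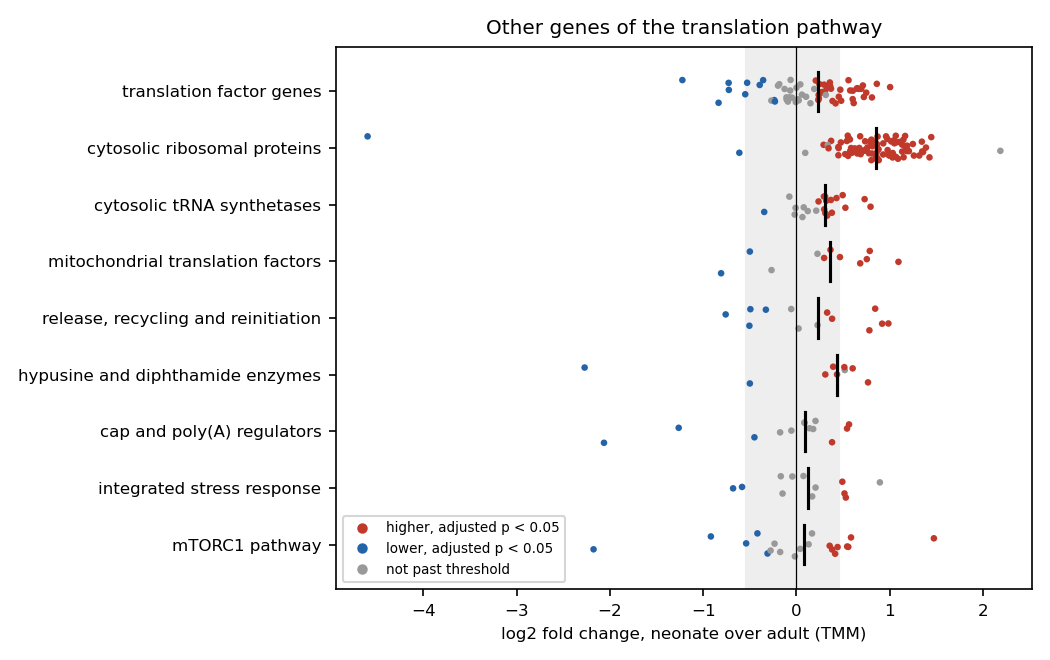
Log2 fold change, neonate over adult (x axis), of the genes tested in each list of the translation pathway, with the median of each list as a black bar and colours by the call. The line is the median and the grey band the middle quartiles of all genes tested. Ribosomal proteins cluster around 0.85, the translation factors around 0.24, and the regulator lists near 0.

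Markers of other cells also differed in level between the ages. All 5 proliferation markers listed, Mki67, Top2a, Cdk1, Ccna2 and Ccnb1, were higher in neonates and summed to 516 and 434 CPM there and to 108 and 110 CPM in adults. Mki67 took the most counts of these in neonates, at 201 and 169 CPM in neonates and 35.6 and 37.2 CPM in adults. Of the 5 macrophage markers, 4 were lower in neonates, with a sum of 97.7 and 101 CPM against 293 and 279 CPM, and Lyz2 took the most counts of them. Pth, the hormone of the parathyroid gland, was at 1773 CPM in the first neonatal library and 208 CPM in the second, with 0 counts in either adult library. The 3 parathyroid markers, led by Pth, summed to 1796 and 212 CPM in neonates and to 0.025 and 0.050 CPM in adults. Both red blood cell markers tested, Hbb and Alas2, were higher in neonates and summed to 2949 and 1763 CPM there and to 789 and 776 CPM in adults, most of these counts from Hbb. Of the fibroblast markers, Dcn and Pdgfra were lower and Col1a1 was not called, and no endothelial marker was called. Of the 4 adipocyte markers, 1 was higher and 2 were lower. The part of these differences in the changes of the translation factors was not tested. Without neonate replicate 1, the library richest in Pth, 30 genes were called higher and 7 lower, and without neonate replicate 2, 27 and 8.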

How the data were processed

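RNA of 4 CB libraries, 2 from neonates and 2 from adults, was analysed. Values are estimated counts as the authors deposited them, neither normalized nor filtered. They came from poly A+ selected paired-end reads that the authors trimmed and ran through STAR and Salmon (version 1.5.2 in the submitters' processing notes) on Rnor_6.0. Counts were rounded. Genes that a RefSeq table (GRCr8) annotates as other than protein-coding (636, matched by symbol or synonym) were removed, and 13843 that reached 1 CPM in 2 or more libraries were kept. R 4.3.3, edgeR 4.0.16 (TMM, quasi-likelihood test, no covariate), limma 3.58.1 and DESeq2 1.42.0 were used. The standard error is the log2 fold change divided by the square root of F. Ratios of paralogs used 0.5 added to each count. The procedure was tested on simulated data. In them few genes changed, with directions drawn at random, so they could not test the scaling. Libraries of an age differed by more than sampling noise (chi-square per degree of freedom 32.6 in neonates and 15.4 in adults).

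The members and lists were chosen with earlier results of these data known. Genes named are the largest called change each way in each role and list, those past 2-fold, the paralog pairs and the eIF2 kinases. Others were named after their values were seen. A marker gene and a sequence window are not reported here. The tools tried instead were DESeq2 and limma-voom. The scalings tried were library size alone, RLE, TMM factors from genes outside the mitochondrial, ribosomal protein and translation factor groups, and library size without mitochondrially encoded genes. Further alternatives were no filter, a mean of at least 5 CPM, all biotypes, genes with whole counts, a replicate block and each library left out.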

Additional observations from a re-analysis of the deposited data

How the results depend on the processing

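With library size alone, 17 translation factor genes were higher in neonates and 22 lower, 0 were at least 2-fold higher and 2 at least 2-fold lower, the median log2 fold change was -0.0077, and 32 companion genes were lower in place of 21. Of the genes called by TMM, those that turned sign there were Eef1g (-0.0064), Eif2s3 (-0.0029), Eif3m (-0.0090) and Eif6 (-0.038), none of them then called. Of those not called, Eif4b turned to -0.22 and was called lower. Eef2k (-0.095), Eif2d (-0.19), Eif2b3 (-0.054), Eif2b4 (-0.14), Eif2b5 (-0.20) and Eif3j (-0.23) also turned, without a call in either fit. With library size without mitochondrially encoded genes the median was 0.13 and 0 genes were at least 2-fold higher. No gene was at least 2-fold higher without a filter on low counts or with a mean of at least 5 CPM (0 and 0), as Eif3k lay just under that fold. Over the fits that left out 1 library, from 22 to 30 genes were higher and from 7 to 8 lower, 0 to 1 were at least 2-fold higher, 1 was at least 2-fold lower, and the median ran from 0.15 to 0.26. In those fits the lone library of an age is assumed to vary like the others. From 117 to 131 companion genes were higher and from 15 to 19 lower, against 129 and 21. DESeq2 called 31 translation factor genes higher and 9 lower. In edgeR's fit with TMM, 24 of the 49 tested genes with whole counts were higher and 8 lower. Differences of the paralog ratios kept their sign, from 0.14 to 0.71 for Eef1a1 over Eef1a2 and from 0.021 to 0.17 for Eif1 over Eif1b.

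Same-numbered libraries did not deviate together (r = -0.015 for each number, over genes), so the numbers were not taken as pairs. With the replicate block, 33 genes were higher and 11 lower, Eif4e3 being added, 9093 of all genes were called in place of 8625, and 134 and 21 companion genes were called. With 2 pools of each age, and most differences under 0.5 on the log2 scale, the number of libraries sets how firmly these calls can be read.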
